A study of Capra hircus with 72 samples.

Results

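The HOX genes were all 37 genes of the goat (Capra hircus) gene table whose symbol names a member of the HOXA, HOXB, HOXC or HOXD cluster, out of 21343 genes. They were compared over 4 brain regions of female goats: the medial prefrontal cortex (mPFC), and 3 parts of the medulla, namely the nucleus tractus solitarii (NTS), the retrotrapezoid nucleus (RTN) and the ventral respiratory column (VRC). The animals breathed room air, had 14 days of mild chronic hypercapnia (marked 6p, read as 6% CO2, in the column names), or had moderate chronic hypercapnia with 7 days at 6% CO2 and then 7 days at 8%. Each of the 12 groups of region and condition held 6 libraries, 72 in all, with a total of 12.84 to 31.88 M counts each (M stands for 10 to the sixth power). No strain, age or genotype was given in the labels.

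HOX genes encode homeodomain transcription factors that give cells of the embryo their position along the head to tail axis. They sit in clusters, and the order of the genes within a cluster follows the order in which they are expressed along the axis, so that low paralog numbers start in the hindbrain and high numbers in the spinal cord and tail. The cerebral cortex forms in front of all HOX domains. Genes with the same number in different clusters are paralogs, copies of 1 ancestral gene. HOX proteins bind DNA with PBX and MEIS partners, and retinoic acid switches on the genes at the 3′ end of each cluster early. In the adult medulla, NTS receives visceral sensory input, VRC holds neurons that shape the breathing rhythm, and RTN, below the facial motor nucleus, holds neurons that respond to CO2.

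The deposited table held 10 members in the HOXA cluster on chromosome 4, 10 in HOXB on chromosome 19, 8 in HOXC on chromosome 5 and 9 in HOXD on chromosome 2. In all 4 clusters the order of the genes along the chromosome followed their paralog number. For 35 of the 37 the gene length given was a multiple of 3, so it is close to a coding length. No rows carried the symbols HOXA9 or HOXC5. A row without a symbol, ENSCHIG00000006426, lay between HOXC4 and HOXC6; it stood at 11.6 ± 1.24 CPM (counts scaled to 1 M counts in a library; SD, n = 6) in room air NTS, 5.53 ± 1.80 in VRC and 0.68 ± 0.57 in RTN, and had no count in room air mPFC. It is not among the 37. Whether the counting used strand is not given in the sources used here, so reads of a HOX gene and of an antisense transcript at the same place cannot be told apart.

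Of the 37 members, 11 had a mean of at least 5 CPM in at least 1 region in room air: HOXA2, HOXA4, HOXA5, HOXA6, HOXB2, HOXB3, HOXB5, HOXB6, HOXC4, HOXD3 and HOXD4. Another 9 reached 1 to 5 CPM (among them HOXA3, HOXA7, HOXB4, HOXB7, HOXB8, HOXC6, HOXD1 and HOXD8), and HOXC8 reached 0.20 CPM. The other 16 stayed under 0.1 CPM. They included HOXB1, which marks a single segment of the embryonic hindbrain and had 2 counts in 1 RTN library of 72 libraries. All 15 members of paralog groups 9 to 13, whose domains lie in the trunk and tail, were among them; together they had 81 counts over the 72 libraries, and 4 of them (HOXB9, HOXB13, HOXC13 and HOXD11) had none. With a floor of 3 counts, levels of these 4 below the floor were not detectable at this depth.

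**Figure D1:**
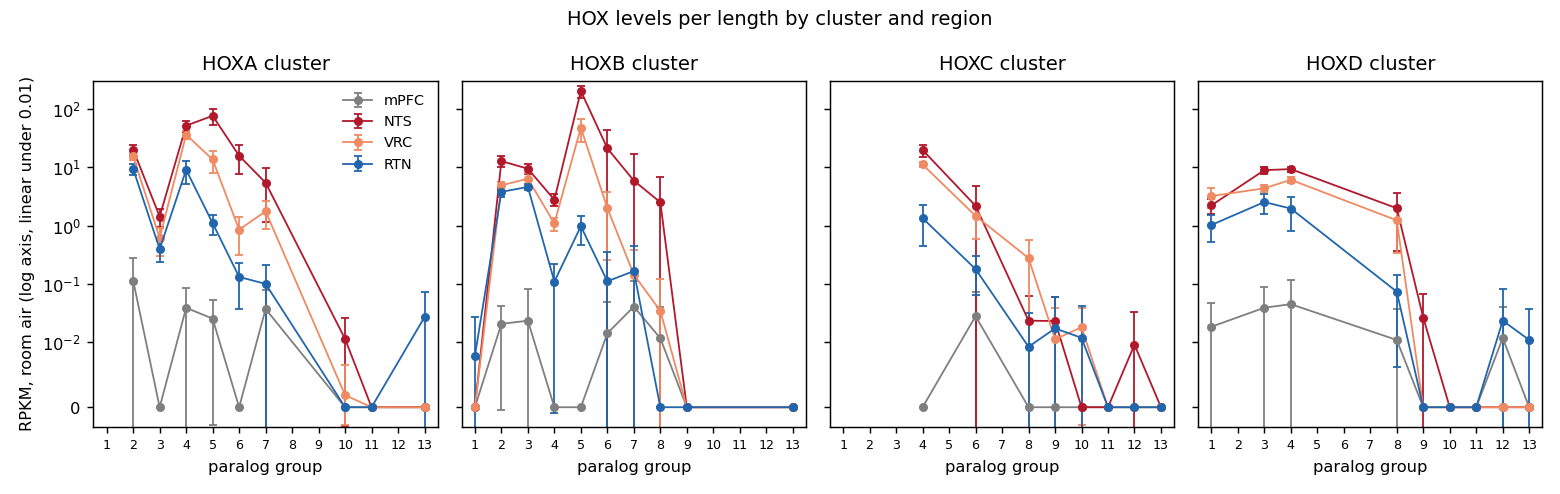
Level of HOX genes per length in room air (RPKM, reads per kilobase and per M reads; log axis, linear under 0.01) against its paralog group, 1 panel for each cluster; points are means of 6 libraries, bars are SD. NTS is highest for most members, VRC and RTN follow, mPFC is near 0, and levels are near 0 in every region from group 9 on in all 4 clusters.

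HOX RNA fell in the order NTS, VRC, RTN, mPFC. Summed over the 37 genes it took 347 to 617 CPM in the 6 room air NTS libraries (median 527), 139 to 230 CPM in VRC (median 196) and 39.6 to 76.4 CPM in RTN (median 52.6). The 3 medullary regions did not overlap in this sum, and they did not over all 3 conditions either, where the ranges of 18 libraries each were 273 to 617, 123 to 230 and 27.3 to 76.4 CPM. In mPFC the sum was 0.23 to 1.33 CPM in room air, which was 4 to 22 counts in a library. Because these are bulk samples, fewer cells with HOX RNA and less HOX RNA in each cell cannot be told apart.

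The leading gene differed between regions when levels were set per length. In room air NTS it was HOXB5 at 203 ± 47.7 RPKM (SD, n = 6), followed by HOXA5 at 76.2 ± 22.3 and HOXA4 at 51.6 ± 11.02 RPKM. In VRC, HOXB5 stood at 47.7 ± 20.4 RPKM and HOXA4 at 36.1 ± 5.43, which is within the spread of HOXB5. In RTN the highest members were HOXA2 at 9.37 ± 2.01 RPKM and HOXA4 at 9.05 ± 3.88 RPKM, again within each other's spread, while HOXB5 was at 0.97 ± 0.51 RPKM. Paralog group 5 thus made up 58.6% ± 4.79 of summed HOX RPKM in NTS, 36.9% ± 9.43 in VRC and 5.42% ± 1.35 in RTN (SD, n = 6). Paralog groups 1 to 3 had the opposite order, with 12.4% ± 2.57 in NTS, 23.3% ± 4.87 in VRC and 60.8% ± 8.85 in RTN. For these groups the ranges of the 18 libraries of each region were 8.03% to 21.1% in NTS, 17.9% to 33.9% in VRC and 51.7% to 79.2% in RTN, so RTN stood clear of the other regions and NTS and VRC overlapped.

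**Figure D2:**
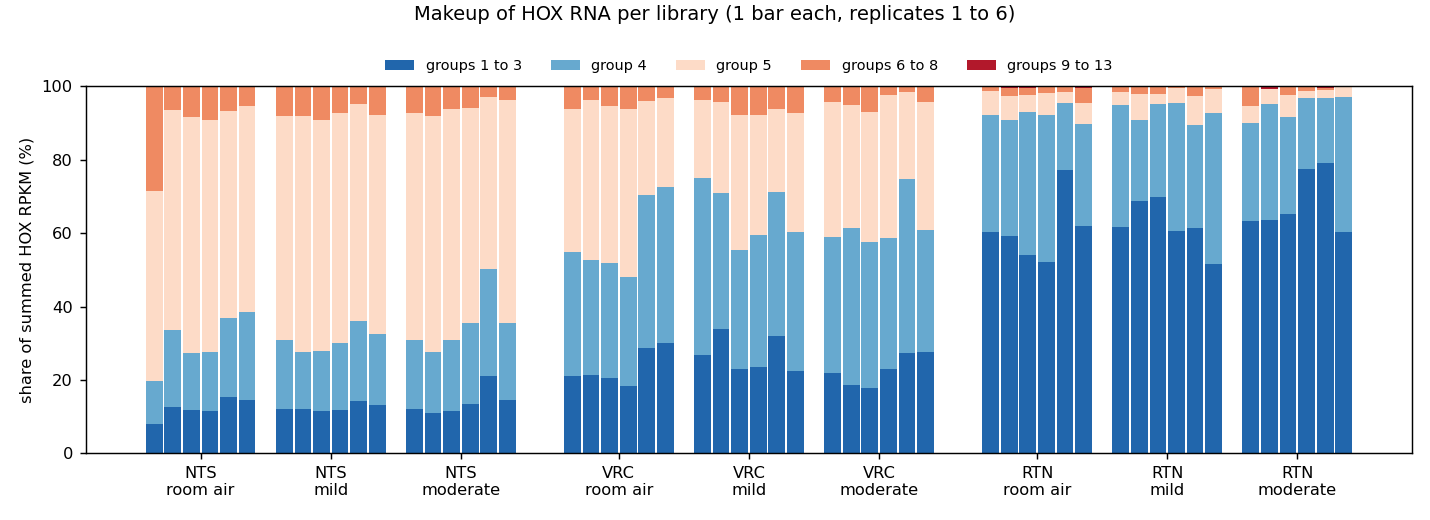
Share of summed HOX RPKM (y axis, percent) taken by 5 ranges of paralog group in each of the 54 medullary libraries, 1 bar for each library, with replicates 1 to 6 of a region and condition side by side. Group 5 is the largest share in NTS, groups 1 to 3 are the largest in RTN (51.7% to 79.2%), and the first room air NTS bar has the largest share of groups 6 to 8, 28.4%.

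The anterior members with at least 5 CPM came from paralog groups 2 and 3. HOXA2, which patterns the front of the hindbrain and the second pharyngeal arch (ENSCHIG00000024428), ran from 16.1 to 27.9 CPM in room air NTS with a median of 23.9, from 15.5 to 20.7 in VRC with a median of 16.6, and from 9.16 to 15 in RTN with a median of 9.63. RTN lay below both other regions in room air, and NTS and VRC overlapped. HOXB2 (ENSCHIG00000025836), which acts in the segments that form the facial motor nucleus, was higher in NTS, at 30.8 to 53.2 CPM (median 40.9), than in VRC, at 11.5 to 18.9 (median 17.3), and RTN, at 10.7 to 16.9 (median 12.01). HOXB3 (ENSCHIG00000013978) and HOXD3 (ENSCHIG00000011624) begin farther back in the hindbrain. HOXB3 was at 8.22 to 14.4 CPM in NTS, 4.94 to 9.85 in VRC and 5.38 to 7.03 in RTN, with overlap of each neighbour. HOXD3 was at 13.1 to 19.0, 6.47 to 9.52 and 2.94 to 7.30 CPM; there NTS stood clear of VRC, and VRC and RTN overlapped.

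Paralog group 4 members, expressed from the last segments of the hindbrain backward, separated RTN from VRC. HOXA4 (ENSCHIG00000019699) was at 32.3 to 57.4 CPM in room air NTS (median 46.4), 28.3 to 40.3 in VRC (median 30.8) and 3.24 to 13.7 in RTN (median 7.92). HOXC4 (ENSCHIG00000026040) was at 33.0 to 65.9 CPM in NTS (median 58.3), 24.9 to 33.5 in VRC (median 32.01) and 1.33 to 6.89 in RTN (median 2.90). For HOXD4 (ENSCHIG00000019702) the ranges were 6.62 to 8.18, 3.81 to 5.32 and 0.51 to 2.95 CPM. In all 3 genes every RTN library lay below every VRC library, in room air and over the 3 conditions.

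The group 5 genes HOXA5 and HOXB5 stood high in NTS and near 1 CPM in RTN. HOXB5 (ENSCHIG00000023147) was at 110 to 219 CPM in room air NTS (median 168), 17.6 to 53.7 in VRC (median 46.5) and 0.30 to 1.23 in RTN (median 0.88). HOXA5 (ENSCHIG00000005534) was at 43.9 to 120 CPM in NTS (median 93.9), 8.24 to 24.8 in VRC (median 16.7) and 0.51 to 1.91 in RTN (median 1.36). No region overlapped another in either gene, in room air or over 18 libraries each. Of the group 6 genes, whose domains begin in the spinal cord, HOXA6 (ENSCHIG00000015611) was at 6.15 to 21.3 CPM in NTS, 0.20 to 1.13 in VRC and 0 to 0.21 in RTN. HOXB6 (ENSCHIG00000008881) was at 4.19 to 44.5, 0.13 to 3.03 and 0 to 0.41 CPM, with the highest NTS value in replicate 1.

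The 9 members of 1 to 5 CPM rested on fewer counts. HOXD1 was highest in VRC, at 1.25 to 4.70 CPM, against 1.46 to 3.14 in room air NTS and 0.40 to 1.89 in RTN, with overlap of each neighbour. HOXA3 was at 1.41 to 3.01 CPM in NTS, 0.39 to 1.55 in VRC and 0.29 to 0.87 in RTN. HOXB4, at 1.43 to 2.74, 0.61 to 1.12 and 0 to 0.22 CPM, had 3 separate ranges. HOXA7 was at 1.70 to 10.03 CPM in NTS, 0.53 to 2.17 in VRC and 0 to 0.22 in RTN. HOXB8 was at 0.39 to 8.46 CPM in NTS, had 3 counts in all 6 VRC libraries and none in RTN. HOXC8 was the 1 member of paralog group 8 with its highest mean in VRC, at 0.20 ± 0.21 CPM (SD, n = 6), against 0.017 ± 0.029 in NTS.

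Clusters also took different shares of summed HOX RPKM. HOXB took 53.9% ± 3.85 in room air NTS, 37.8% ± 7.32 in VRC and 26.4% ± 3.31 in RTN (SD, n = 6). HOXA had the opposite order, with 36.4% ± 2.81, 44.0% ± 4.03 and 55.4% ± 2.14, and HOXD took 4.94% ± 1.18, 9.76% ± 2.28 and 14.3% ± 3.01. In room air the HOXA shares of RTN (53.2% to 58.9%) lay above those of VRC (39.0% to 48.7%) in every library. Over the 18 libraries of each region they overlapped, at 44.7% to 63.3% in RTN and 39.0% to 49.9% in VRC. Shares of 1 sum are not independent of each other.

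**Figure D3:**
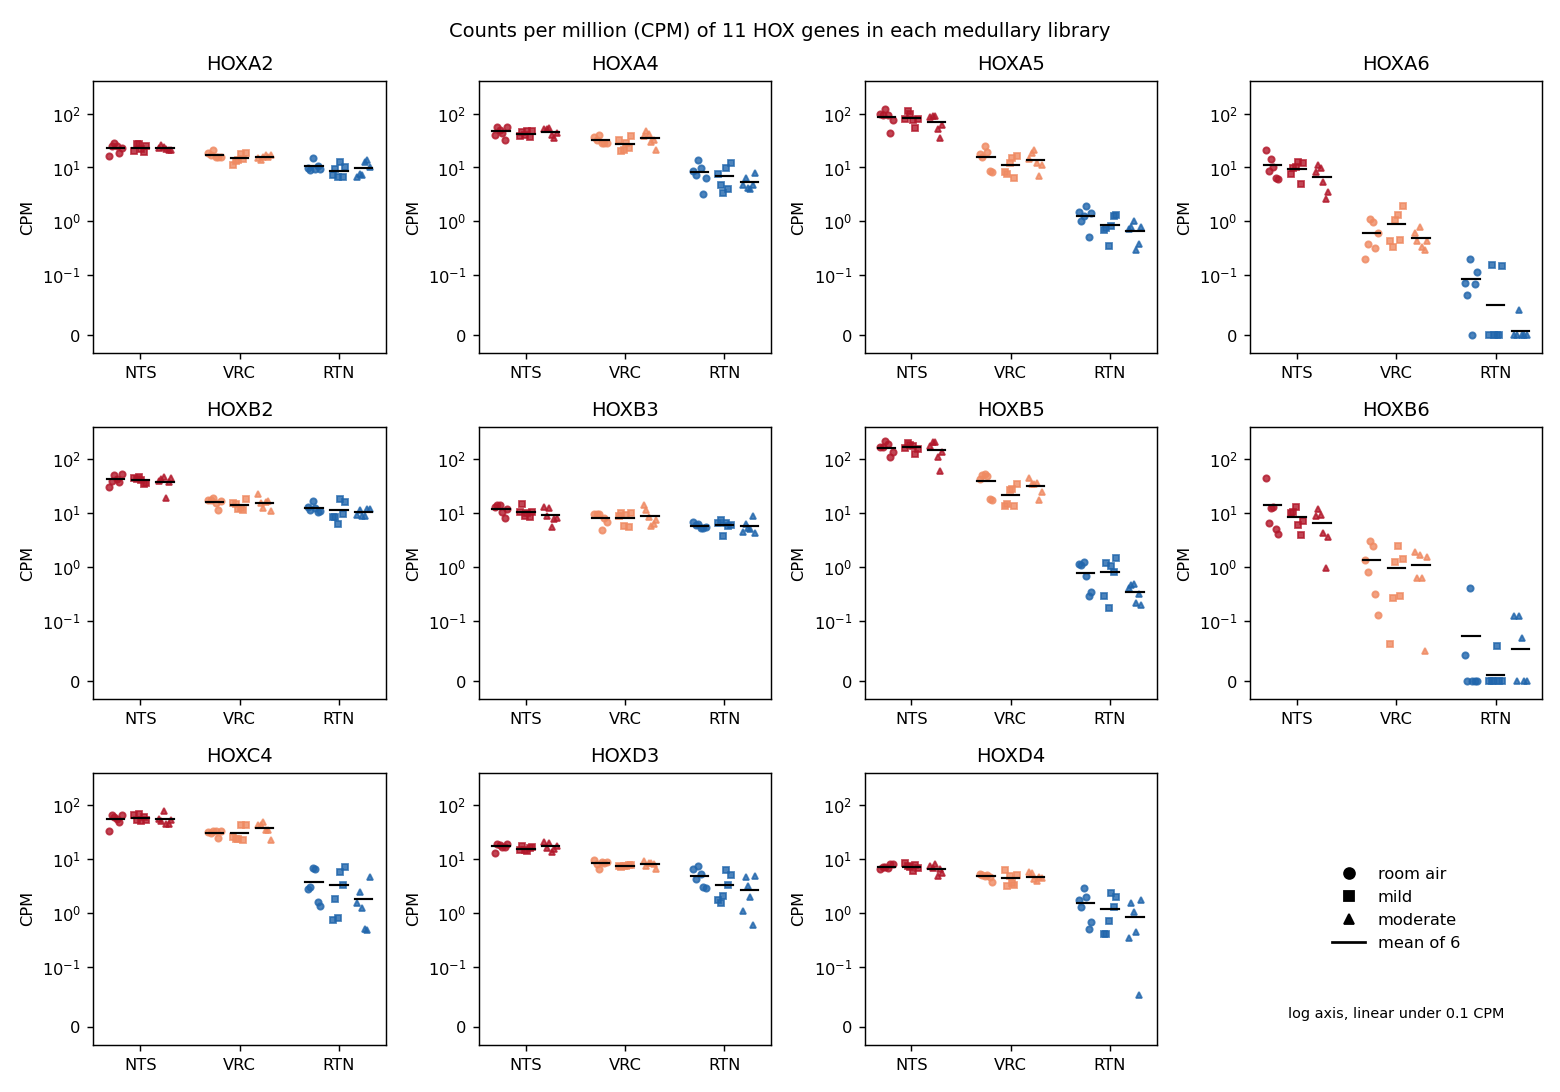
CPM (log axis, linear under 0.1) of the 11 most abundant HOX genes in each of the 54 medullary libraries, with a line at the mean of each 6; circles, squares and triangles are room air, mild and moderate hypercapnia. HOXA5 and HOXB5 form 3 separate bands, HOXA2 and HOXB3 lie close together across regions, and the 3 conditions of a region overlap in all 11 genes.

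Room air libraries of the 3 medullary regions were tested together with the quasi-likelihood test of edgeR on counts, adjusted by the Benjamini-Hochberg method over 15455 genes. The filter on low counts kept 18 of the 37 HOX genes. These 18 also passed it in the VRC libraries alone and in the NTS libraries alone, but 6 of them (HOXA6, HOXA7, HOXB4, HOXB6, HOXC6 and HOXD8) did not in RTN alone, and such genes had to be low there.

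NTS against VRC gave 10 HOX genes higher in NTS at an adjusted p under 0.05 and 0 lower. The background was 17.9% of all genes tested called higher and 14.1% called lower. The median log2 fold change was 0.82 over the 18 HOX genes and 0.02 over all genes. The 10 were HOXA3, HOXA5, HOXA6, HOXA7, HOXB2, HOXB3, HOXB4, HOXB5, HOXB6 and HOXD3. HOXA6 had a log2 fold change of 4.07 ± 0.41 (SE; edgeR adjusted p = 3.28e-06), and 3.77 without NTS room air replicate 1. HOXA5 had 2.37 ± 0.28 (adjusted p = 9.9e-06), HOXB5 1.98 ± 0.29 (adjusted p = 5.71e-05) and HOXB2 1.27 ± 0.15 (adjusted p = 9.66e-06). HOXB6 had 3.29 ± 0.70 (adjusted p = 0.00152) and 2.49 without that replicate. HOXB3, at 0.46 ± 0.17 with an edgeR adjusted p of 0.046, lost its call when any 1 of 13 of the 18 libraries was left out (for example 0.34 without VRC replicate 4). HOXA2 (0.29 ± 0.15), HOXA4 (0.41 ± 0.22), HOXD4 (0.51 ± 0.27) and HOXC4 (0.72 ± 0.28, adjusted p = 0.0564) did not pass. Without NTS room air replicate 1 HOXA2 (0.36, adjusted p = 0.0427) and HOXC4 (0.82, adjusted p = 0.0222) passed; HOXC4 also passed without RTN replicate 3, 4, 5 or 6. HOXA7 lost its call without that replicate (0.98, adjusted p = 0.0659). HOXD1 had a lower value in NTS (-0.64 ± 0.32, adjusted p = 0.128), and HOXC6 had one without that replicate (-0.43 against 0.45 with it).

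RTN against VRC gave 14 of the 18 lower in RTN and 0 higher, where the background was 6.19% called lower and 7.91% higher. Counting only the 12 genes that passed the filter on low counts in RTN alone, 8 were lower: HOXA2, HOXA4, HOXA5, HOXB5, HOXC4, HOXD1, HOXD3 and HOXD4. HOXB5 had a log2 fold change of -5.59 ± 0.38 (SE; edgeR adjusted p = 4.96e-08), HOXA5 -3.63 ± 0.33 (adjusted p = 2.51e-06), HOXC4 -3.05 ± 0.31 (adjusted p = 7.45e-06) and HOXA4 -1.99 ± 0.24 (adjusted p = 2.9e-05). HOXA2 had only -0.70 ± 0.15 (adjusted p = 0.00377). Among the 4 that did not pass were HOXA3 (-0.62 ± 0.34), HOXB2 (-0.37 ± 0.15) and HOXB3 (-0.47 ± 0.17). With the replicate number as a block HOXB2 and HOXB3 passed as well (edgeR adjusted p = 0.0421 and 0.0267), which made 16. HOXB2 also passed without RTN replicate 3 or VRC replicate 5, and HOXB3 without VRC replicate 4.

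Among the 12 genes that passed the filter in RTN alone, RTN values relative to VRC were lower at higher paralog numbers. In room air the median log2 fold change was -0.63 over the 7 genes of groups 1 to 3 (from -1.62 to -0.37), -1.99 over the 3 of group 4 (-3.05 to -1.62) and -4.61 over the 2 of group 5 (-5.59 and -3.63). Spearman's rho between paralog group and log2 fold change was -0.69 across these 12 genes in room air, -0.73 in mild and -0.72 in moderate hypercapnia. Over all 18 tested in room air it was -0.82, but the 6 added genes, of groups 4 to 8, had to be low in RTN, since they passed the filter only through the other regions. Genes are not independent replicates, and this is a description. Between NTS and VRC the rho over all tested genes was 0.46, 0.34 and 0.14, and the medians in room air were 0.60 for groups 1 to 3, 0.61 for group 4 and 1.98 for groups 5 to 8. The rho in mild includes HOXB7, which did not pass the filter in VRC alone and so had to be low there. Within paralog group 6, HOXA6 and HOXB6 had the highest values of the 18, while HOXC6 was at 0.45 ± 0.62 in room air (-0.43 ± 0.53 without NTS replicate 1) and was lower in NTS in moderate hypercapnia (-1.63 ± 0.59, edgeR adjusted p = 0.035).

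**Figure D4:**
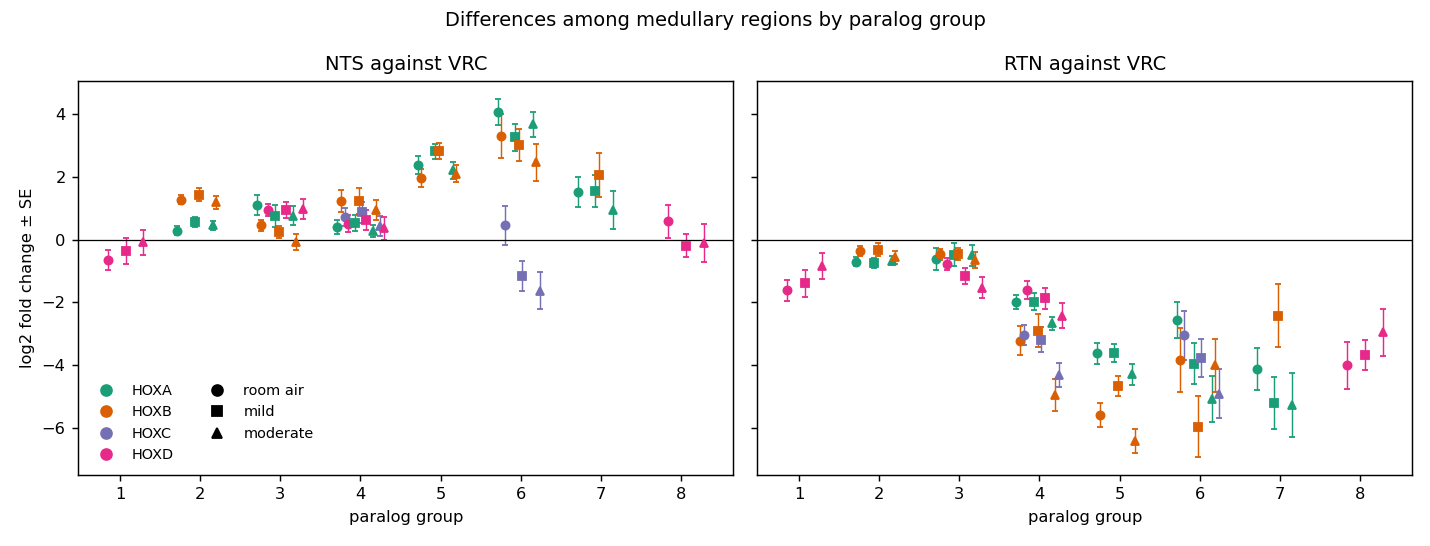
Log2 fold change (y axis, with SE bars) of tested HOX genes between NTS and VRC (left) and RTN and VRC (right) against paralog group, coloured by cluster, with the 3 conditions as different symbols. On the right the room air values of groups 1 to 3 run from -1.62 to -0.37, all below the zero line, and HOXB5 is lowest at -5.59; on the left HOXA6 is highest in room air (4.07) and HOXC6 is below the zero line in moderate hypercapnia (-1.63).

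RTN against NTS gave 18 of 18 tested HOX genes lower in RTN (11.4% of all genes were called lower), with log2 fold changes from -0.93 ± 0.17 for HOXB3 to -7.57 ± 0.40 for HOXB5. This contrast shares its libraries with the contrasts just described. All 12 genes that passed the filter in RTN alone were among the 18.

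The other conditions gave similar counts from other libraries. In mild hypercapnia 11 of 19 tested HOX genes were higher and 0 lower in NTS than VRC (background 23.9% in each direction), 15 were lower in RTN than VRC (background 6.58%), and 18 were lower in RTN than NTS (background 16.9%). Of the 12 that passed the filter in RTN alone, these were 9 and 11. HOXB7, tested between these regions only in mild, passed the filter in the NTS libraries alone but not in VRC or RTN alone. It had to be low in VRC and RTN, and was among those called higher in NTS than VRC and lower in RTN than NTS. With the replicate block the mild counts were 12, 16 and 19, with HOXA4 added between NTS and VRC (adjusted p = 0.00905) and HOXB3 between RTN and VRC (adjusted p = 0.0251). In moderate hypercapnia 9 of 18 were higher and 1, HOXC6, lower in NTS than VRC (18.8% and 18.6% of all genes), 14 were lower in RTN than VRC (background 2.09%), and 16 lower in RTN than NTS (background 14.8%); of the same 12 these were 8 and 10. In all 3 conditions the test called 7 genes higher in NTS than VRC, namely HOXA5, HOXA6, HOXB2, HOXB4, HOXB5, HOXB6 and HOXD3. Of the 12 that passed the filter in RTN alone, it called 7 lower in RTN than VRC (HOXA2, HOXA4, HOXA5, HOXB5, HOXC4, HOXD3 and HOXD4) and 10 lower in RTN than NTS in all 3. The share of all genes called in all 3 conditions was not worked out, so these repeat counts have no background beside them.

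Complete separation of the regions is a simpler count. Over 18 libraries against 18 and the 20 members with a mean of at least 1 CPM in a region, VRC lay wholly above RTN for 8: HOXA4, HOXA5, HOXB4, HOXB5, HOXC4, HOXC6, HOXD4 and HOXD8. Over all 15175 genes chosen by the same level this was so for only 19, or 0.125%. NTS lay wholly above VRC for HOXA5, HOXA6, HOXB5 and HOXD3 (1.56% of all genes) and wholly above RTN for 12 (1.88%). Of the 8, HOXB4, HOXC6 and HOXD8 did not pass the filter in RTN alone, nor did HOXA6, HOXA7, HOXB4 and HOXB6 of the 12. Such genes had to be low in RTN. HOXA6 reached a mean of 1 CPM only in NTS.

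Among the marker lists, levels also differed between the medullary regions in room air. The sum of 5 neuron markers was 5787 to 8428 CPM in VRC, 4452 to 12074 in NTS and 13131 to 19869 in RTN, and the sum of 6 measured myelin markers of 7 was 37428 to 50273, 7638 to 35500 and 21310 to 32387 CPM. The 5 motor neuron markers summed to 18.3 to 301 CPM in VRC, 43.1 to 1597 in NTS and 1024 to 1785 in RTN. Serotonin neuron markers (3 genes) were highest in RTN, at 85.1 to 177 CPM, against 4.79 to 34.2 in VRC. Leukocyte markers (5 genes) stayed at 9.65 to 48.7 CPM in the 3 regions. The part of these differences in the HOX results was not tested. As a check of the labels, NEUROD2, a factor of cortical neurons, stood at 18.9 ± 4.55 CPM in mPFC, 3.09 ± 1.14 in NTS, 2.10 ± 0.46 in VRC and 0.45 ± 0.20 in RTN (SD, n = 6).

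In mPFC the HOX genes were at the edge of detection. Against the mean of the 3 medullary regions all 18 tested members were lower in room air (edgeR, 15700 genes; 30.1% of genes were called lower), and so were 18 of 19 in mild (HOXB7 was not called) and 18 of 18 in moderate hypercapnia (27.5% and 27% of genes). HOXB5, HOXC4 and HOXA6 had 0 counts in the 6 room air libraries together. Set against a floor of 3 counts over the group, 0.0284 CPM, the room air NTS mean was 5812-fold higher for HOXB5, 1929-fold for HOXC4 and 391-fold for HOXA6. The exact 95% Poisson upper bound for 0 counts was above this floor, at 0.035 CPM, so these folds are not lower bounds. HOXA2 had the most mPFC counts of the 11 abundant members, 14 over 6 libraries, or 0.133 CPM with an exact 95% Poisson interval of 0.0725 to 0.223. HOXA5 had 3 and HOXB6 had 1. These intervals cover counting error only. Nothing can be read from the order of the members at such counts, and no HOX gene passed the filter on low counts in mPFC alone, so the genes tested had to be low there.

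No HOX gene passed the test between conditions in any medullary region. The 3 contrasts among room air, mild and moderate were fitted on the 18 libraries of a region, with 19 HOX genes tested in NTS, 18 in VRC and 12 in RTN. In all 9 medullary contrasts edgeR called 0 HOX genes, and DESeq2 called 0; the background was 0% in 8 and 0.00649% (1 gene of 15418) in moderate against room air in NTS. At an unadjusted p under 0.05 there were 2 HOX genes in mild and 3 in moderate against room air in NTS, 1 in each of the 3 VRC contrasts, 0 in mild and 2 in moderate against room air in RTN, 0 in moderate against mild in NTS and 1 in moderate against mild in RTN. Over all genes the same edgeR cut took 718, 2073 and 620 of 15418 in NTS (mild and moderate against room air, then moderate against mild). In the same order it took 953, 867 and 2375 of 15302 genes in VRC, and 1011, 1132 and 1620 of 15343 in RTN. The design has limited reach: in simulated counts for mild against room air, 59.7% to 74.6% of 2-fold changes passed the edgeR test, and 25.4% to 37.3% of 1.5-fold changes did. The simulation changed 66 or 67 genes, picked at random from all tested, at each of 1.5, 2 and 4-fold together. Adjustment is stricter where fewer genes change, so these shares do not give the reach for HOX genes changing alone.

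The genes of smallest p in each contrast were as follows. In VRC, HOXB5 was at 17.6, 46.5 and 53.7 CPM (lowest, median and highest of 6) in room air, at 13.9, 20.7 and 34.2 in mild and at 17.6, 35.5 and 44.3 in moderate hypercapnia. The 3 groups overlapped. Mild against room air gave HOXB5 a log2 value of -0.84 ± 0.31 (SE; edgeR adjusted p = 0.759) and HOXA2, next in order of p, -0.23 ± 0.13 (adjusted p = 0.813). In RTN, moderate against room air, HOXA5 was at 0.51, 1.36 and 1.91 CPM in room air and 0.29, 0.75 and 1.00 in moderate (log2 -0.87 ± 0.35, adjusted p = 0.635), and HOXB5 at 0.30, 0.88 and 1.23 against 0.20, 0.37 and 0.50 (-1.10 ± 0.47, adjusted p = 0.638). There 11 of the 12 tested members had negative values, with a median of -0.51 against a median of about 0 over all genes. Genes measured in the same libraries are not independent replicates, so this count is a description. HOXD1 in VRC was at 1.25, 2.98 and 4.70 CPM in room air, 1.16, 3.15 and 5.60 in mild and 0.60, 1.96 and 2.30 in moderate (moderate against room air -0.84 ± 0.36, adjusted p = 0.864). HOXC4 came next there, at 0.30 ± 0.19. Moderate against mild, HOXD1 (-0.88 ± 0.36) and HOXD8 (-0.95 ± 0.46) came first in VRC, HOXB5 (-1.17 ± 0.47) and HOXC4 (-0.81 ± 0.60) in RTN, and HOXD1 (-0.60 ± 0.37) and HOXD8 (-0.87 ± 0.54) in NTS. In RTN mild against room air gave -0.53 ± 0.35 for HOXA5. A test of whether the responses differed between NTS, VRC and RTN called 0 of 19 HOX genes and 0 of 16058 genes; HOXB5 had the smallest HOX p (0.0378, adjusted p = 1).

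One library moved the NTS values. In room air replicate 1, HOXB6 was at 44.5 CPM where the other 17 NTS libraries of all conditions ran from 0.95 to 13.2. HOXB7 was at 18.6 CPM against 0 to 1.64, HOXB8 at 8.46 against 0 to 0.75, and HOXC6 at 5.19 against 0.18 to 1.79. HOXA7 (10.03 against 0.42 to 6.59), HOXA6 (21.3 against 2.55 to 14.3) and HOXD8 (4.23 against 0.12 to 2.21) also lay above all others. These 7 were the whole set of members of groups 6 to 8 with a room air mean of at least 1 CPM, a cut that counts this library itself. Without it the NTS means of HOXB7 and HOXB8 were 0.95 and 0.53 CPM (n = 5), so both met the cut only through it. HOXC8, of group 8 and below the cut, was at 0.23 CPM in mild NTS replicate 3 and at 0.068 in room air replicate 1. In the same library HOXA2 (16.1 against 18.8 to 27.9), HOXC4 (33.0 against 44.6 to 77.3) and HOXD3 (13.1 against 13.4 to 20.7) lay below all others, while HOXA5 and HOXB5, at 99.98 and 169 CPM, were inside the range. The library had the highest myelin marker sum (35500 CPM against 3833 to 22482), the lowest astrocyte sum (11052 against 13642 to 24567) and the lowest motor neuron sum (43.1 against 81.0 to 1850); their part in its HOX values was not tested.

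**Figure D5:**
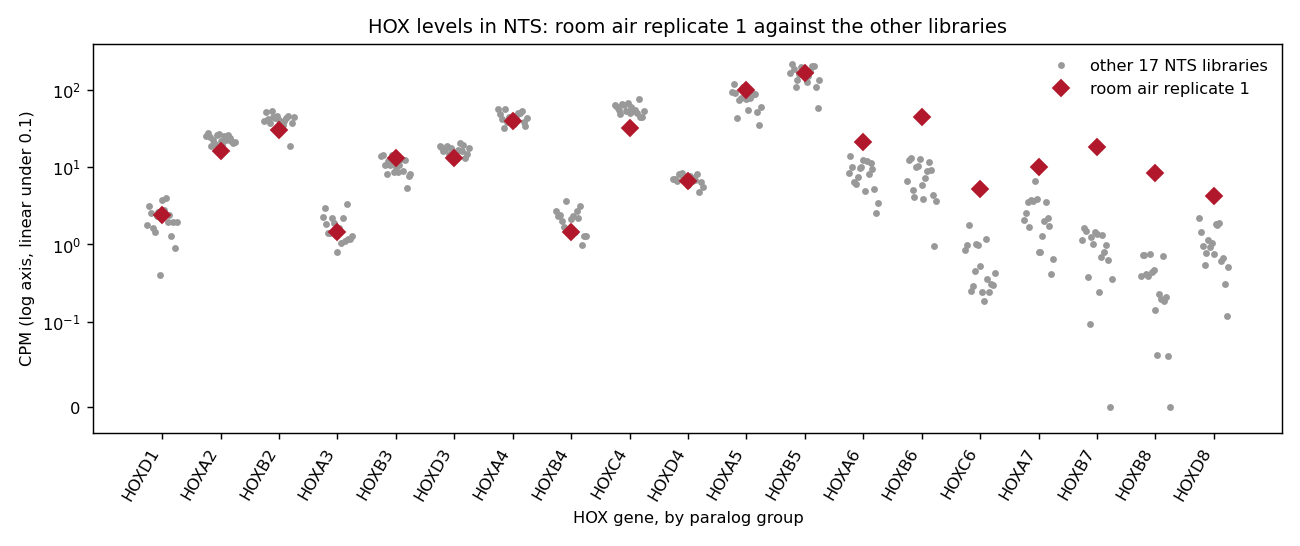
CPM (log axis, linear under 0.1) of 19 HOX genes in NTS room air replicate 1 (diamonds) and in the other 17 NTS libraries (grey points), ordered by paralog group. Genes shown had a mean of at least 0.1 CPM over all NTS libraries. The diamonds lie within or below the grey points up to group 5 and above all of them for the 7 genes of groups 6 to 8. This cut counts replicate 1 itself, and HOXB7 and HOXB8 reached a room air mean of 1 CPM only through that library.

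Several NTS condition values rest on that library. Mild against room air, HOXB7 had a log2 value of -1.93 ± 0.88 (SE; edgeR adjusted p = 0.848) and HOXC6 -1.42 ± 0.64 (adjusted p = 0.848). Without replicate 1 these were 0.13 (adjusted p = 0.993), with the sign turned, and -0.53 (adjusted p = 0.97). Moderate against room air, HOXB7 went from -2.49 ± 0.92 (adjusted p = 0.33) to -0.42 (adjusted p = 0.865) and HOXC6 from -1.70 ± 0.66 (adjusted p = 0.337) to -0.80 (adjusted p = 0.697). The mean of HOXB6 in room air NTS was 14.4 ± 15.2 CPM (SD, n = 6) with it and 8.33 ± 4.24 (n = 5) without, and that of HOXB8 was 1.85 ± 3.24 and 0.53 ± 0.18. The count of HOX genes higher in NTS than VRC in room air was 10 with and without it, but HOXA7 and HOXB3 left the count and HOXA2 and HOXC4 entered it.

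Within a region, libraries differed in group 5 level, and HOXA5 and HOXB5 moved together. Deviations of log2(CPM + 0.1) from the group mean were correlated over the 18 libraries of a region for 3 paralog pairs in 3 regions, 9 relations in all, with permutations within groups and adjustment over the 9. For HOXA5 and HOXB5, r was 0.93 in NTS (rho 0.94, both adjusted permutation p = 0.00018) and 0.91 in VRC (adjusted permutation p = 0.000315; rho 0.81, adjusted p = 0.00126). Leaving out the 2 most distant libraries gave 0.92 and 0.87. In RTN r was 0.60 (rho 0.40, adjusted permutation p = 0.0214 and 0.15) and 0.31 without 2 libraries, so it rests on those. HOXA4 and HOXC4 had r of 0.54 in NTS (rho 0.60, adjusted permutation p = 0.066 and 0.0328), 0.78 in VRC (rho 0.73, 0.00684 and 0.011) and 0.69 in RTN (rho 0.66, 0.00763 and 0.0225); without 2 libraries r was 0.52, 0.61 and 0.65. HOXA2 and HOXB2 had 0.42, 0.13 and 0.63 (rho 0.43, 0.21 and 0.52; adjusted permutation p of r = 0.0656, 0.587 and 0.0113, of rho = 0.11, 0.427 and 0.0793), and 0.22, 0.07 and 0.50 without 2 libraries. Genes measured in 1 library share its depth and its dissection.

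The low libraries carried the same number in both regions. Replicate 5 had the lowest value of its group for HOXA5 or HOXB5 in 9 of 12 sets of gene, region (NTS, VRC) and condition, and the lowest or second lowest in 12 of 12; this number was singled out after the values were seen. In moderate NTS, HOXB5 was at 59.6 CPM in replicate 5 where the group median was 158, and the 3 measured choroid plexus and ependyma markers summed to 1654 CPM there, the highest of the 18 NTS libraries. Their part in the low value was not tested. Over the 18 pairs of NTS and VRC libraries with the same condition and number, deviations were correlated for the 11 abundant genes, with adjustment over the 11. HOXA5 had r of 0.72 (rho 0.66, adjusted permutation p = 0.0184 and 0.0347), HOXB3 0.69 (rho 0.74, 0.0193 and 0.0216) and HOXB5 0.60 (rho 0.49, 0.0193 and 0.13); without the 2 most distant pairs r was 0.55, 0.75 and 0.40. The other 8 genes ran from -0.19 to 0.53, with no adjusted permutation p of r under 0.05. Nothing in the labels ties a number to an animal.

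Genes known to work with HOX proteins were taken from lists. Of 9 tested partner genes, 3 were higher in room air NTS than VRC and 0 lower (all genes: 17.9% and 14.1%), among them PBX3 (53.0 ± 10.02 against 27.1 ± 2.67 CPM, log2 0.86 ± 0.13) and PKNOX2 (1.47 ± 0.33). PBX3 was the only 1 called between RTN and VRC (18.6 ± 3.34 CPM in RTN, log2 -0.54 ± 0.13, edgeR adjusted p = 0.00759). Of 16 genes that make, carry, sense or break down retinoic acid, 6 were higher and 1 lower in NTS than VRC. The carrier CRABP1 stood at 162 ± 76.6 against 27.2 ± 8.18 CPM (log2 2.47 ± 0.38), the synthesis enzyme ALDH1A1 had 1.54 ± 0.25 and the receptor RARA 0.92 ± 0.15, while CYP26B1, which breaks retinoic acid down, was lower at -1.89 ± 0.24 (adjusted p = 1.69e-05). Between RTN and VRC 1 of the 16 was higher and 2 were lower (all genes: 7.91% and 6.19%).

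Of 4 tested genes that divide the embryonic brain into segments, GBX2, a factor of the anterior hindbrain, was higher (log2 1.14 ± 0.23) and EN1 lower (-1.61 ± 0.53) in NTS than VRC, and 0 passed between RTN and VRC. Over all genes 17.9% were called higher and 14.1% lower in NTS than VRC. Of 14 genes of Polycomb and Trithorax complexes, which keep HOX clusters silent or active, EZH2 (-0.57 ± 0.18) and JARID2 (-0.41 ± 0.12) were lower in NTS than VRC, and RING1 lower in RTN than VRC. These counts, 2 and 1 of 14, were near the shares of all genes called lower, 14.1% and 6.19%. Of 10 transcription factors of medullary neurons, 6 were higher and 1 lower in NTS than VRC; they included TLX3 (2.67 ± 1.24 against 0.050 ± 0.065 CPM), LBX1 (log2 2.68 ± 0.45) and, lower in NTS, NKX2-2 (-1.17 ± 0.20). In RTN against VRC 4 of them were higher and 1 lower, where the shares over all genes were 7.91% and 6.19%. Of 2 tested forebrain factors, NEUROD2 (-2.21 ± 0.31) and NEUROD6 (-1.71 ± 0.38) were lower in RTN than VRC and did not pass between NTS and VRC. No gene of these lists was called between conditions in any region.

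Over the 54 medullary libraries the 10 genes outside the clusters whose log2(CPM + 1) was most correlated with that of summed HOX CPM, out of 11894 with at least 1 CPM, were MAPK13 (r = 0.95), ZIC4 (0.94), NRSN2, HPCAL1, WNT3, PBX3 (0.92), LY6H, ZIC1, SLC6A17 and PTPN5 (0.91). Regions differ in the HOX sum, so these r are a description of the regional order and carry no p. ZIC4 and ZIC1 are neighbouring zinc finger genes of the dorsal nervous system, and ZIC4 fell from 20.5 ± 8.02 CPM in room air NTS to 3.88 ± 1.60 in VRC and 0.94 ± 0.55 in RTN. The partner gene PBX3 is in both this group and the list of HOX partners. Within a region r was lower, for PBX3 0.37 in NTS, 0.26 in VRC and 0.55 in RTN. Outside the medulla the likeness ended: MAPK13 stood at 24.8 ± 1.83 CPM in room air mPFC and 4.24 ± 1.30 in RTN, and SLC6A17 at 408 ± 88.4 and 42.0 ± 11.1, while PBX3 stood at 9.36 ± 2.75 and 18.6 ± 3.34.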

How the data were processed

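Female goat brain RNA was extracted with Direct-Zol columns and made into libraries with a SMARTer Universal Low Input kit, per the labels' protocols. The submitters' processing notes list, with no role or order, STAR, featureCounts, edgeR, Trimmomatic and FastQC. No version, genome build or strand setting, nor how shared reads were treated, is given in the sources used here. The deposited table gives raw counts and RPKM values, both made by the authors, and a gene length in bases (other), per the file headers. CPM was computed from each count and its column total. Library sizes implied by the RPKM were 1.0046 to 1.007 times those totals. Counts were tested with edgeR 4.0.16 (R 4.3.3): filterByExpr at a minimum count of 10, TMM, quasi-likelihood test, Benjamini-Hochberg at 0.05, with 18 libraries a fit (3 medullary regions of a condition, or 3 conditions of a region), 24 with mPFC and 54 for the difference of responses between regions. The tests were tried on simulated data. The fits were repeated with the replicate number as a block, without each library in turn, with RLE factors, with all genes kept, with DESeq2 1.42.0 and, chosen after seeing the data, the newer quasi-likelihood form.

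Same-numbered libraries of a condition deviated together between regions in 89 of 108 pairs (r over 0.1), and in 6 of 18 region pairs of a condition for all 6 numbers, which the labels do not explain; across conditions of a region it was 28 of 72 pairs and 0 of 12. No 2 libraries were near copies. Nothing in the labels says how animals map to libraries, so p-values measure the spread between these samples. The members and gene lists were chosen with earlier results of these data known. Genes with at least 5 CPM in a region in room air are described one by one; of a contrast between conditions the genes called, or else the 2 of smallest p; of a list up to 4 called members; and 10 genes of like pattern. Others named were chosen after their values were seen. Of 21343 genes, 6643 carry no symbol. Some genes that enter the counts are not reported here by name or plotted singly.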

Additional observations from a re-analysis of the deposited data

Results flagged for a closer look

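In 92 sets of 6 libraries (the 11 abundant HOX genes in each medullary region and condition where their mean was at least 1 CPM, and the HOX sum), the highest or lowest library was compared with the rest by Dixon's gap ratio. It stood far from the others in 6; chance alone marks about 1 in 20 sets. HOXB6 was at 44.5 CPM in NTS room air replicate 1, where the other 5 ran from 4.19 to 13.2. HOXC4 was at 77.3 CPM in NTS moderate replicate 3 (others 44.6 to 55.5) and at 24.9 CPM in VRC room air replicate 5 (others 30.6 to 33.5). HOXB2 was at 19.1 CPM in NTS moderate replicate 4, where the others ran from 37.7 to 47.1. HOXB3 was at 14.5 CPM in NTS mild replicate 2 (others 8.6 to 10.7). HOXA2 was at 15 CPM in RTN room air replicate 3 (others 9.16 to 10.7).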

How the results depend on the processing

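The counts of HOX genes called in each of the 25 comparisons stayed within 1.5 times the reported count under each alternative run. Single libraries were not left out of the region contrasts in mild and moderate hypercapnia or of the test of responses between regions. Leaving out 1 library at a time, the room air counts were 9 to 11 for NTS against VRC, 14 to 15 for RTN against VRC, 17 to 18 for RTN against NTS and 17 to 18 for mPFC, and 0 in each contrast between conditions. With the replicate number as a block the room air counts were 11, 16 and 18, against 10, 14 and 18 without it, and the test of responses between regions gave 0. Of single genes, HOXB7 in NTS between mild and room air ran from -2.20 to 0.13 with each library left out in turn, and was above 0 only without NTS room air replicate 1. HOXB3 between NTS and VRC, which passed at 0.046, did not pass with RLE factors (adjusted p = 0.0569) or without a filter (0.0538). HOXC4 in the same contrast passed with DESeq2 (0.0496) and the block (0.0306). HOXB6 between RTN and VRC did not pass with the newer quasi-likelihood form (0.0515). Members under 0.1 CPM rest on a few counts, and no regional order can be read from them.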
